A study of Mus musculus with 13 samples.

Results

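The alarmins S100a8 and S100a9 and the granule or secreted-protein genes Retnlg, Camp, Ngp, Elane, Mpo and Wfdc21 were followed across single-cell libraries of mouse liver. They are 8 of the 55353 genes listed in the count files. Neutrophils were the barcodes with at least 1500 unique molecular identifiers (UMIs, each standing for 1 captured transcript), at least 1 UMI of Csf3r or Cxcr2 and none of C1qa, which gave 4879 of 95563 cells. Male C57BL/6J mice of 6 to 12 weeks received chow with 0.1% DDC (3,5-diethoxycarbonyl-1,4-dihydrocollidine), which injures bile ducts, for 0, 3, 5, 9, 19 or 25 days (D0 to D25), and each day was sampled once with isolation protocol A and once with protocol B. A further library, STOP, came from mice fed DDC for 18 days followed by 7 days of recovery, isolated by protocol B. D0 mice received no DDC and are the only controls. The second label of the D19 library of protocol B gives day 18.

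Protocol A pooled, in equal parts, living single cells, leukocytes (Cd45+), cells positive for Lyve-1, for Pdpn or for Epcam, endothelial cells that were Cd31+ Lyve-1-, and cells with retinoid autofluorescence, and protocol B sorted living cells of a stellate cell preparation, Cd45+ Itgax+ Cd64- cells, Epcam+ cells and Cd3e+ Lyve-1- cells. Neither protocol sorted neutrophils by name, so the number of neutrophils in a library is set by the sort and is not read as an abundance in the liver. Each combination of day and protocol is 1 library, the mice behind a library are not given in the sources used here, and the spread below is a spread between libraries.

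Neutrophils carry ready-made proteins in granules that are filled in sequence while the cell matures in the bone marrow. Azurophil granule proteins are made first, specific granule proteins next and gelatinase granule proteins later, so the transcripts of the early granules are largely gone when a neutrophil enters the blood. S100a8 and S100a9 encode the subunits of calprotectin, a calcium- and zinc-binding cytosolic complex that acts as an alarmin on Tlr4 when released, and their transcripts persist in mature cells. Retnlg encodes a secreted resistin-like protein of mature neutrophils. Wfdc21 encodes a small secreted protein of the whey acidic protein family and is also known as an acute-phase transcript of hepatocytes. Camp encodes the cathelicidin precursor of an antimicrobial peptide and Ngp encodes neutrophilic granule protein, both of the specific granule. Elane encodes neutrophil elastase and Mpo encodes myeloperoxidase, both of the azurophil granule.

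The upstream sequences are shown because S100a8 and S100a9 followed each other from cell to cell, Retnlg gave the widest separation of libraries, and most Camp UMIs lay in cells that also held Ngp. In GRCm38.p6, S100a8 lies on chromosome 3 from 90669071 to 90670034 and S100a9 on the same chromosome from 90692630 to 90695721, with 22595 bases between them. Camp (chromosome 9, 109847377 to 109849456) and Ngp (chromosome 9, 110419808 to 110423012) are 570351 bases apart. Retnlg lies on chromosome 16 from 48872608 to 48874498, Wfdc21 on chromosome 11 from 83746940 to 83752646, Elane on chromosome 10 from 79886312 to 79888216 and Mpo on chromosome 11 from 87793784 to 87804412. RefSeq promoter sequences on GRCm38.p6 were matched for 7 of the 8 genes, Wfdc21 being the exception. The 250 bases before the transcription start of S100a8, S100a9, Retnlg, Camp and Ngp are printed 5′ to 3′ on the strand of the gene, with capitals marking matches to TTNNGNAA, a form of the C/EBP motif searched on both strands, and to TATAAA, searched on the strand of the gene.
S100a8, chr3:90668821-90669070, plus strand: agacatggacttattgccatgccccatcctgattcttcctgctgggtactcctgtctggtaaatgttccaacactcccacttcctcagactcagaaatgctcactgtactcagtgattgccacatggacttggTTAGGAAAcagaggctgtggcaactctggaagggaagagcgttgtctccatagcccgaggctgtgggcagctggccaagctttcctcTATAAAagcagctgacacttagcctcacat
S100a9, chr3:90695722-90695971, minus strand: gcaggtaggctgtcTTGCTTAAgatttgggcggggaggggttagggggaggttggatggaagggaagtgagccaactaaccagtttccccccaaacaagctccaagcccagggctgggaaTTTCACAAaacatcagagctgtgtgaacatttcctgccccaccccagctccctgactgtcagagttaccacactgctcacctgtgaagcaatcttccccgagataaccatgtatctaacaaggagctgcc
Retnlg, chr16:48872358-48872607, plus strand: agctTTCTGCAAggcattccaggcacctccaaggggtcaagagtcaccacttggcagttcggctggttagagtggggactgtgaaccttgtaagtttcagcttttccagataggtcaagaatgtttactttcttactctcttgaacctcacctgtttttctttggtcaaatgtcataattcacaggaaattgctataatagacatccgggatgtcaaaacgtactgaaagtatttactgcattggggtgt
Camp, chr9:109849457-109849706, minus strand: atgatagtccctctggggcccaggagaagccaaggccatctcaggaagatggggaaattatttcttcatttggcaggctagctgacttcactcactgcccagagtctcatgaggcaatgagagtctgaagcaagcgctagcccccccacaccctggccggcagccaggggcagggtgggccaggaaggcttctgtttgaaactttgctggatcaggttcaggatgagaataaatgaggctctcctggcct
Ngp, chr9:110419558-110419807, plus strand: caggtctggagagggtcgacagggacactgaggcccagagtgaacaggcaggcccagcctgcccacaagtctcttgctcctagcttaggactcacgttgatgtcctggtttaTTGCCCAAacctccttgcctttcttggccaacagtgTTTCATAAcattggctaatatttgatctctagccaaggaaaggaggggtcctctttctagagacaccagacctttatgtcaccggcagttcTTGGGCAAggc
C/EBP factors are transcriptional regulators of granulocyte maturation. TTNNGNAA occurred in 4 of the 7 windows, against 36.8% of 32851 promoters of the same length, and TATAAA in 1 of the 7, against 7.59%. S100a8 held TTNNGNAA from position -117 and TATAAA from position -30, counted from the transcription start. S100a9 held TTNNGNAA at -236 and -130, Retnlg at -246 and Ngp at -138, -102 and -11. The windows of Camp, Elane and Mpo held neither set of letters.

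The label of the cells was checked before the genes were read. Of the 4879 neutrophils, 91.9% held Csf3r and 62.4% Cxcr2, the genes that chose them. The markers Mmp9, Il1r2, Hdc, Trem1, Clec4d and Mxd1 were each held by 63.4% (Trem1) to 76.9% (Mxd1). Of the cells outside the rule, at most 24.3% (Mxd1) held any given one of these markers. Mmp8 was rarer than these in the neutrophils. Ly6g, a defining surface marker of mouse neutrophils, was seen in 3.16%, against 0.0359% of the cells outside the rule. In a clustering of all cells, named from fixed marker genes, 3425 of the 4879 (70.2%) fell in neutrophil-like clusters, and 2527 held no marker UMI of another lineage. Ly6g was also rare in the neutrophils inside those clusters, at 4.15%. The 10 neutrophil markers include Csf3r and Cxcr2, so the names of the clusters are not independent of the rule. The share in neutrophil-like clusters ran from 5.56% in D3 B, where 2 of 36 cells did, and 33.8% in D0 B to 86.1% in D19 A. The neutrophil-like clusters held 4867 cells in all, of which 1442 lay outside the rule. A C1qa UMI was held by 1196 and a Csf3r or Cxcr2 UMI was lacking in 336, with some cells in both counts. The summed level of 6 B cell markers in the neutrophils was 49.9 and 1376 CPM (UMIs of a gene in every 1000000 UMIs of the summed cells) in the D0 libraries and at most 54.0 in every later atlas library. Library totals ran from 29307190 to 108602421 UMIs, no pair of the 13 libraries shared more than 49 cell barcodes (at most 0.519% of the smaller library), and D3 B had the fewest neutrophils with the largest median depth, 17051.5 UMIs a cell against 2812 over all. Results that rest on the clusters are therefore also given for the cells inside them.

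S100a8 and S100a9 were by far the most counted of the 8 genes, with 524551 and 603321 UMIs in cells, and 92.1% and 92.8% of these lay in the neutrophils or in other cells of neutrophil-like clusters. Retnlg had 51927 UMIs, of which 94.0% lay there. Wfdc21 had 26604 UMIs, of which only 39.2% lay there. Camp (1137 UMIs), Ngp (1894), Elane (202) and Mpo (50) were rare, and 82.6%, 75.6%, 86.1% and 76% of their UMIs lay in the neutrophils. An S100a8 UMI was found in 82.4% of the neutrophils, an S100a9 UMI in 81.3%, a Retnlg UMI in 40.9% and a Wfdc21 UMI in 40.5%. Ngp was found in 2.62%, Camp in 0.594%, Elane in 0.0615% and Mpo in 0.041%. Most neutrophils thus held the alarmins, a smaller share held Retnlg and Wfdc21, and few held the 4 granule transcripts.

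**Figure D1:**
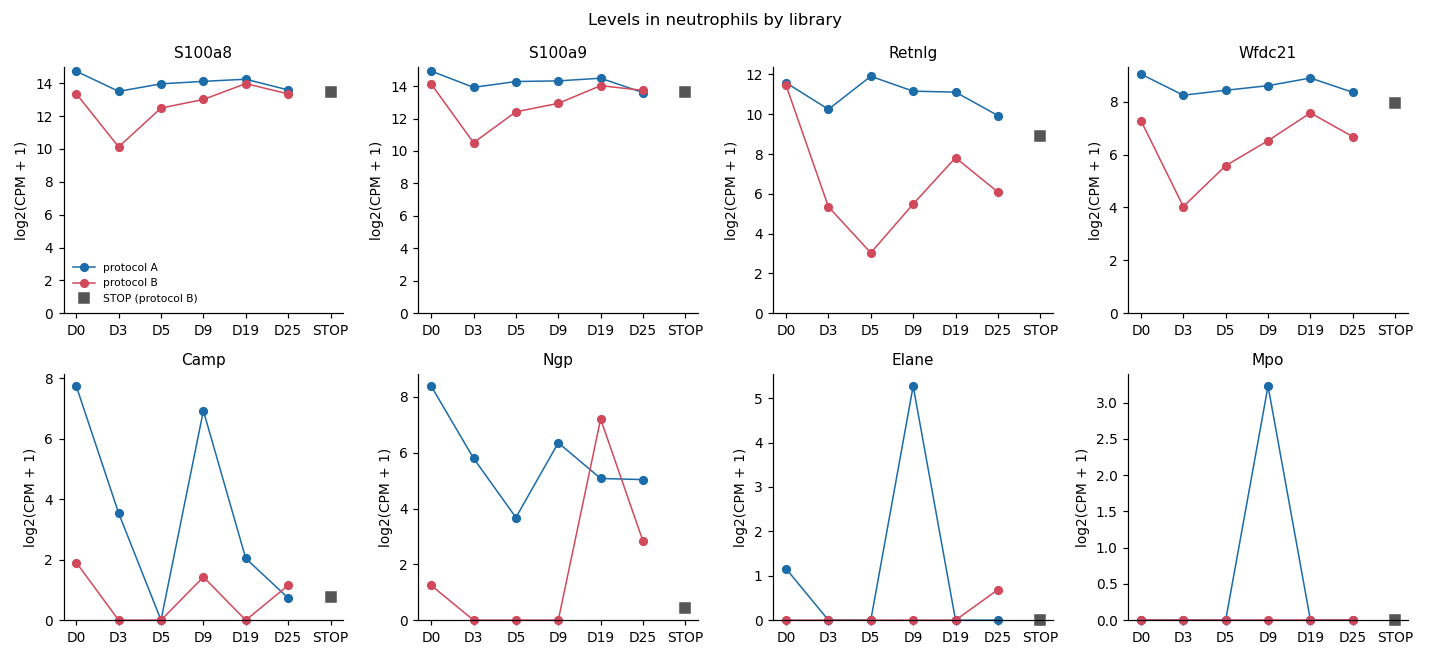
Level of each of the 8 genes in the neutrophils of each library, on a log2(CPM + 1) axis against days on DDC, with 1 point a library (blue, protocol A, red, protocol B, grey square, STOP). S100a8 and S100a9 were high in every library except D3 B, Retnlg separated the protocols after D0, and Elane and Mpo stood above 2 CPM in D9 A alone.

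The alarmins stood above 1000 CPM in the neutrophils of every library. S100a8 stood in the neutrophils at 27070 CPM in D0 A, and in protocol A at 11596 (D3), 15907 (D5), 17679 (D9), 19341 (D19) and 12309 (D25). In protocol B it stood at 10491 (D0), 1114 (D3), 5736 (D5), 8225 (D9), 16078 (D19) and 10417 (D25), and in STOP at 11466 CPM. D0 A was the highest and D3 B, with 8 S100a8-containing cells among 36, the lowest, and D0 B had DDC libraries both above and below it. S100a9 followed the same order at the extremes, from 1458 CPM in D3 B through a median of 16093 over the 12 atlas libraries to 31140 in D0 A, with 12989 in STOP. Within neutrophil-like clusters alone, S100a8 made up 1.96% (D25 B) to 4.53% (D0 A) of all UMIs of the cells in the 11 atlas libraries with at least 20 such cells, and 4.68% in STOP. In D3 B, 2 of the 36 cells lay in those clusters, with S100a8 at 30202 CPM, and the other 34 held 798 CPM. The median over atlas libraries was 11953 CPM for S100a8, 1096 CPM for Retnlg and 246 CPM for Wfdc21 in all neutrophils, and 29904, 2760 and 649 CPM in those inside the clusters.

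Changes of the alarmins with the diet did not pass the test over all neutrophils of the rule. UMIs were summed per library and fitted with edgeR's quasi-likelihood test with the protocol as a term, and p was adjusted by Benjamini-Hochberg over 10832 genes. The 10 DDC libraries entered as the mean of early days (D3 and D5) and later days (D9, D19 and D25). Both groups of days weighed the same, whatever their number of libraries. Against the 2 D0 libraries this mean gave a log2 change of -0.83 in S100a8 (SE 0.48, adjusted p = 0.596) and of -1.17 in S100a9 (SE 0.49, adjusted p = 0.432). Later days (D9, D19 and D25, called progression, n = 6) against early days (D3 and D5, called onset, n = 4) gave 0.89 in S100a8 (SE 0.45, adjusted p = 0.457) and 0.81 in S100a9 (SE 0.46, adjusted p = 0.526). In the neutrophil-like clusters alone, where D3 B has too few cells to enter, the later-against-early values were -0.11 and -0.21. That setting changes both the cells and the libraries, and leaving out D3 B alone gave 0.50 and 0.41. Inside those clusters S100a9 made up 5.26% (D0 A) and 5.89% (D0 B) of UMIs. The DDC libraries with at least 20 such cells lay below both, at 2.03% (D9 B) to 4.21% (D5 A). S100a8 made up 4.53% (D0 A) and 3.47% (D0 B), against 1.96% (D25 B) to 3.75% (D19 B). The share of all genes with such a separation was not computed.

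Background for these counts is the number of genes called in the same fits. DDC against D0 called 17 of 10832 genes (0.157%), all lower with DDC, and 6 of the 8 genes were tested with 0 called. At an unadjusted p under 0.05 the fit held 1133 genes, S100a9, Retnlg, Wfdc21 and Camp among them, and DESeq2 called 161 genes, 45 higher and 116 lower. Without D0 A, edgeR called 108, 29 higher and 79 lower. The leading genes of the 17 were Iglc2, Cd79a, Ebf1 and Ighm, which are B cell genes, and Dhrs9, and the B cell markers of the neutrophil sums were highest in 1 of the 2 D0 libraries (1376 CPM), the other (49.9 CPM) lying within the range of the onset libraries (1.23 to 54.0 CPM). Whether those cells took part in the calls was not tested. Progression against onset called 1 of 10832 genes (0.00923%), Ms4a4c, which was lower, and none of the 6 (1297 genes at an unadjusted p under 0.05, 215 calls by DESeq2, 106 higher and 109 lower). Elane and Mpo did not pass the filter on low counts in either fit.

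S100a8 and S100a9 went together cell by cell. Over the cells of neutrophil-like clusters, the Pearson correlation of log2(UMIs + 1), each cell thinned to 1500 UMIs, lay between 0.813 (STOP) and 0.924 (D3 A) in the 12 libraries with at least 20 such cells, with a median of 0.852. Both genes share the library and the depth of a cell, so this is a description. The ratio of S100a9 to S100a8 UMIs in the neutrophils was 0.951 in D5 B and 0.953 in D9 B, 1.13 in STOP and at most 1.71 in D0 B. S100a9 was thus the more counted of the pair in 11 of 13 libraries, on counts that take no account of transcript length or capture. The spread within a library was wide: in D19 A the S100a8 share of a cell's UMIs was 0.259% at the 10th percentile, 2.23% at the median and 6.28% at the 90th percentile over 758 cells.

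Retnlg gave the widest separation among the common genes. In D0 it stood at 3069 CPM (A) and 2812 CPM (B). In protocol A the DDC libraries held 1215 (D3), 3840 (D5), 2286 (D9), 2213 (D19) and 978 (D25) CPM, on both sides of D0. In protocol B they held 39.8 (D3), 7.20 (D5), 43.9 (D9), 225 (D19) and 67.1 (D25) CPM, all below D0 B, and STOP held 471 CPM. Every DDC library of protocol B lay below every library of protocol A and below D0 B, and STOP lay between them.

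Changes of Retnlg with the diet did not pass the edgeR test. The fit with all 12 libraries gave a log2 change of -4.39 with DDC (SE 0.99, edgeR adjusted p = 0.121), which missed the threshold, while DESeq2 gave -4.52 (adjusted p = 0.00791). Without the protocol term the edgeR change was -1.50, without D0 B it was -0.38, and without D0 A it was -5.67 (adjusted p = 0.0109), each with a single D0 library that is assumed to vary like the others. Within a protocol, where 5 DDC libraries stand against a single D0 library and no test is given, the fitted change was -0.37 in protocol A and -6.03 in protocol B. The test of the difference itself, also added after the values were seen, gave -5.69 for protocol B minus protocol A (SE 1.30, edgeR adjusted p = 0.0891; DESeq2 adjusted p = 0.0218), beside 3 of 10832 genes called (0.0277%), of which none was among the 8. In neutrophil-like clusters alone it called 0 genes. A difference between the protocols in the change with DDC was therefore not established by edgeR. On simulated counts that test recovered 8% of 4-fold changes. The levels of the DDC libraries themselves were not tested between the protocols. D0 B is 1 library, and a protocol effect and an effect of the mice or the day of that library cannot be told apart.

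The share of cells with Retnlg showed the same layout. With every cell thinned to 1500 UMIs, 73.6% of neutrophils in D0 A and 53.0% in D0 B held a Retnlg UMI. In protocol A the share was 46.5% (D3), 63.4% (D5), 45.8% (D9), 31.3% (D19) and 24.3% (D25), and in protocol B it was 5.56%, 2.30%, 6.41%, 5.23% and 3.23% on the same days. STOP held 22.8% (95% exact binomial interval 18.7 to 27.2%). Without thinning the shares were 79.1% and 58.9% in D0 A and D0 B and 27.8% in STOP. In T cell-like cells, which should lack Retnlg, the thinned share was 0.310% of 967 cells in D0 B and 0.0514% of 1944 cells in STOP, at median depths of 2157 and 3415.5 UMIs against 3788 and 2852 in the neutrophils. The intervals cover counting error only.

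Restricting the count to neutrophil-like clusters left that layout in place, although different clusters held the cells. Of the cells of the rule inside those clusters, 84.5% in D0 A and 76.5% in D0 B held Retnlg after thinning. The DDC libraries of protocol A ran from 32.5% (D25) to 83.1% (D5), and those of protocol B with at least 20 cells from 3.40% (D25) to 9.09% (D9), with 36.0% in STOP. A cluster with Retnlg at 147 CPM held 32 of the 37 such cells in D5 B, 35 of 44 in D9 B, 114 of 122 in D19 B and 179 of 206 in D25 B, and 309 of 758 in D19 A of protocol A, but 1 of 309 in D0 A and 8 of 51 in D0 B. A cluster with Retnlg at 11586 CPM held 151 of 309 in D0 A, 17 of 51 in D0 B and at most 1 cell in each DDC library of protocol B. Retnlg was left out of the genes clustered, and no test was run on this layout, so this is a description. Cells with Retnlg also held more of the alarmins: in D19 A S100a8 stood at 41483 CPM in the 259 cells with Retnlg against 22705 CPM in the 499 without, and Wfdc21 at 1398 against 345 CPM. The exception was D9 B, where 4 cells with Retnlg held 13500 CPM of S100a8 against 25350 CPM in 40 without. The correlation of S100a8 with Retnlg over cells ran from -0.00811 (D9 B) to 0.719 (D0 B).

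**Figure D2:**
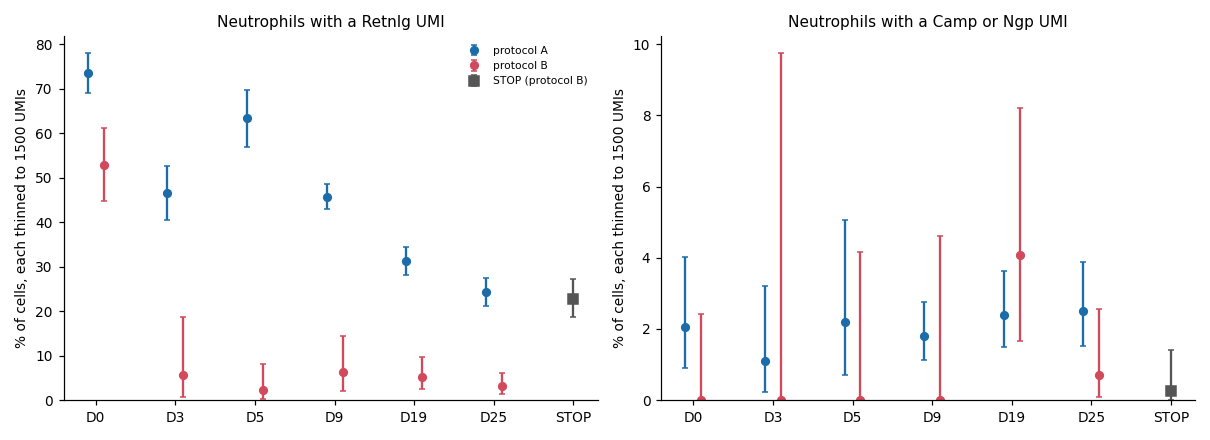
Percent of neutrophils with a Retnlg UMI (left) and with a Camp or Ngp UMI (right) by days on DDC, every cell thinned to 1500 UMIs, with exact 95% binomial intervals that cover counting error only (blue, protocol A, red, protocol B, grey, STOP). Retnlg-containing cells made up 24.3% or more in protocol A and 6.41% or less in the DDC libraries of protocol B, while the share with Camp or Ngp stayed at or under 4.07% throughout.

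Camp and Ngp, the specific granule genes, were found in 29 and 128 neutrophils, of which 11 held both. Camp was counted 345 times in D0 A, in 7 cells of which the top 3 gave 95.7%. In D9 A it was counted 547 times, of which 539 were in 1 cell. In the other 11 libraries it was counted 0 to 26 times. Ngp was counted 541 times in 13 cells of D0 A, 367 times in D9 A with 322 in the same single cell, 134 times in 6 cells of D3 A, 139 times in 9 cells of D19 B, where the top 3 gave 80.6%, 126 times in 37 cells of D19 A, where the top 3 gave 48.4%, and 96 times in 24 cells of D25 A, where 1 cell gave 55.2%. The 11 cells with both genes held 919 of the 939 Camp UMIs and 1074 of the 1431 Ngp UMIs of the neutrophils, and 5 of them were in D0 A. STOP held 2 Camp UMIs and 1 Ngp UMI in 395 neutrophils.

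The level of Camp in a library, and of Ngp in D0 A, D3 A, D9 A and D19 B, was thus set by very few cells, and the tests have to be read with that. Camp differed with DDC by a log2 change of -3.51 (SE 1.25, edgeR adjusted p = 0.346) and Ngp by -1.84 (SE 1.17, adjusted p = 0.626). In the neutrophil-like clusters alone, which do not hold the single D9 A cell, Camp fell by 4.25 (edgeR adjusted p = 0.00862), and without the D9 A library it fell by 5.18 (edgeR adjusted p = 0.0316). In all cells of those clusters the value was -2.99 (edgeR adjusted p = 0.234). The D0 side was nearly all from D0 A: inside the clusters it had 141 Camp UMIs in 6 cells, the cell with 204 lying outside them, and D0 B had 1 Camp UMI inside and 1 outside. The sign for Ngp turned to 3.64 when D0 A was left out.

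Shares of cells were used to count cells rather than transcripts. After thinning, a Camp or Ngp UMI was held by 2.07% of neutrophils in D0 A and 0% in D0 B (0 of 151 cells, which allows up to 2.41% by the exact interval). The 10 DDC libraries ran from 0% to 4.07% (D19 B). DDC and D0 means were 1.48% ± 1.35 (SD, n = 10) and 1.03% ± 1.46 (SD, n = 2), a difference of 0.447 percentage points (two-sided exact permutation test within protocol, p = 0.528, smallest possible p 0.0278). Progression and onset means were 1.92% ± 1.44 (SD, n = 6) and 0.827% ± 1.05 (SD, n = 4), a difference of 1.09 points (two-sided exact permutation test within protocol, p = 0.21, smallest possible p 0.01). Groups overlapped in both. STOP held 0.253% (1 of 395 cells), and T cell-like cells held 0 in every library.

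Neutrophils with Camp or Ngp were compared with the rest of the neutrophils in D9 A and D19 A, the libraries with 21 such cells each, on sums of thinned cells. The Retnlg level was 16444 CPM with and 3223 CPM without in D9 A, and 23556 CPM with and 2336 CPM without in D19 A. Wfdc21 stood at 1841 against 536 CPM and at 2063 against 585 CPM. S100a9 stood at 88318 against 29671 CPM and at 89079 against 29506 CPM, and S100a8 at 77270 against 25267 CPM and at 61524 against 24803 CPM. S100a8, S100a9, Retnlg and Wfdc21 thus each stood higher in the cells that still held specific granule transcripts. The sums with and without did not overlap for these genes, but the share of all genes for which this holds was not computed. The sums also differed in their cells. Neutrophil-like clusters held 20 of the 21 cells with Camp or Ngp in each library. Of the cells without, they held 772 of 1137 in D9 A and 738 of 859 in D19 A. Values of the fit inside the clusters alone are given below.

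The edgeR fit on these 4 sums, with the library as a term and 1 residual degree of freedom, called 21 of 6046 genes higher (0.347%) and 55 lower (0.91%), beside a median log2 change over all genes of -0.56. DESeq2 called 17 higher and 1 lower, and counts that were not thinned gave 80 higher and 147 lower in edgeR. Camp and Ngp chose the cells and are not counted as results, although they are among the 21. Retnlg was higher by 2.72 (SE 0.31, edgeR adjusted p = 5.75e-15), Wfdc21 by 1.68 (SE 0.26, adjusted p = 5.27e-08) and S100a9 by 1.46 (SE 0.42, adjusted p = 0.045). S100a8 had 1.34 (SE 0.40, adjusted p = 0.0606), which missed the threshold, while DESeq2 gave 1.49 (adjusted p = 3.95e-13). In neutrophil-like clusters alone, Retnlg stayed called at 2.46, Wfdc21 at 1.29 and S100a9 at 1.16. Over the 6 libraries with at least 5 such cells, S100a8, S100a9, Retnlg and Wfdc21 were each higher in 6 of 6. The share of all genes higher in 6 of 6 was not computed, so these counts, here and below, are a description.

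Of the genes of the granule lists other than Camp and Ngp, Mmp8 and Lcn2 were called. Mmp8, a collagenase known from specific granules that was listed with the gelatinase granule genes here, was higher by 2.77 and in 6 of 6 libraries, with 349 against 101 CPM in D9 A and 1143 against 93.1 CPM in D19 A. Lcn2, the iron-siderophore binding protein of the specific granule, was higher by 1.51 and in 5 of 6 libraries, and was 1 of the 3 genes called of 9 tested in the specific granule list, the others being Camp and Ngp themselves. The exception for Lcn2 was D5 A (133 against 676 CPM). Stfa1, a cystatin-type protease inhibitor whose close paralogs make its counts uncertain, was higher by 2.58, Slpi, a secreted protease inhibitor, by 1.15 and S100a6, a calcium-binding protein, by 1.20. Each of these 3 was higher in 5 of 6 libraries. The exception for Stfa1 was D0 A (0 against 58.0 CPM), where 0 in a sum of 12000 UMIs allows 3 counts and sets no direction. D19 B was the exception for Slpi (95.2 against 311 CPM) and S100a6 (381 against 1228 CPM). Ltf, which encodes lactoferrin of the specific granule, was higher in 1 of 6 libraries, D0 A, at 2750 CPM (33 UMIs) against 1.76 CPM. The cells with Camp or Ngp held 2 Ltf UMIs in D19 A and 0 in D5 A, D9 A, D19 B and D25 A. These counts lie under the floor of 3, so no direction can be read there. Cxcr4, a chemokine receptor that marks aged neutrophils and their retention in the marrow, had a log2 change of -1.56 (edgeR adjusted p = 0.0199) and was higher in 0 of 6 libraries.

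The lists were read by their counts beside the background. Of the mature neutrophil list 3 of 12 tested genes were higher (Retnlg, Wfdc21 and Slpi), of the gelatinase granule list 1 of 5, of the alarmins 1 of 2 and of the other S100 genes 1 of 7. In the activation and ageing list 1 of 10 was lower. The list of alarmin receptors (0 of 2), the azurophil granule list (0 of 1) and the granule transcription factors (0 of 4) held no call. Of the 55 lower genes the leading ones, Dcn, Tcf4, M6pr, Ptges3 and Slco2a1, include stromal and endothelial genes, and 6 of the 55 were at 0 in both sums of 31500 UMIs. A count of 0 there allows 3 counts, and no fold is given for them.

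**Figure D3:**
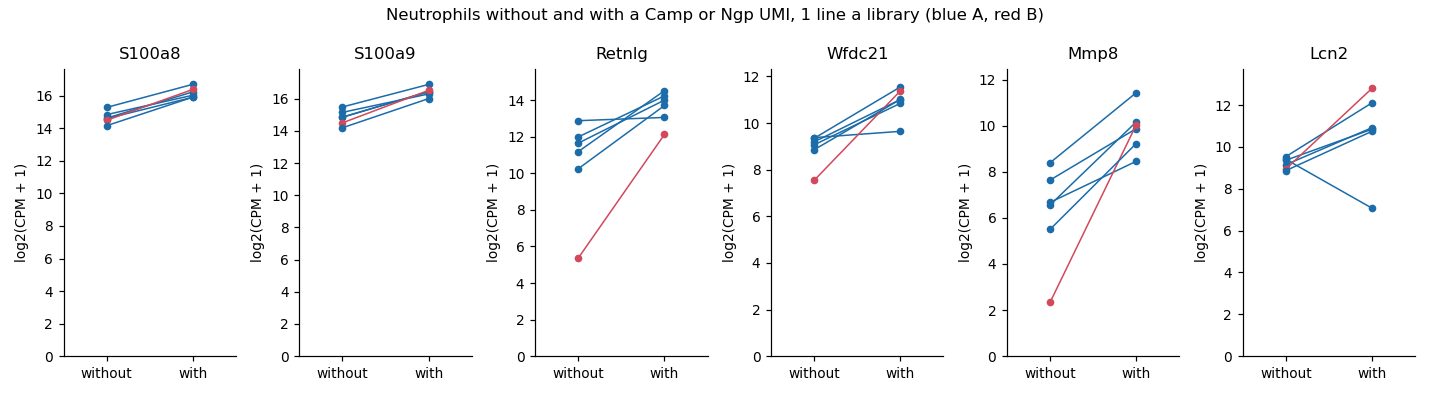
Level of 6 genes, on log2(CPM + 1) axes, in neutrophils without and with a Camp or Ngp UMI after thinning, 1 line for each of the 6 libraries with at least 5 such cells (blue, protocol A, red, protocol B). S100a8, S100a9, Retnlg, Wfdc21 and Mmp8 stood higher on the right in 6 of 6 libraries and Lcn2 in 5 of 6, with the share of all genes doing so not computed.

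Elane and Mpo, the azurophil granule genes, were close to absent from the cells of these libraries. Of 95563 cells, 43 held a UMI of either, and 1 cell of D9 A held 171 of the 202 Elane UMIs and 37 of the 50 Mpo UMIs. The other 42 cells held 31 Elane and 13 Mpo UMIs between them, at most 2 UMIs of either gene each, and lay in many classes, with 10 in biliary epithelial cell (BEC)-like and 8 in liver sinusoidal endothelial cell (LSEC)-like clusters. STOP had 6 such cells with no more than 1 UMI of a gene each.

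The single D9 A cell held 18163 UMIs and met the neutrophil rule with 2 Csf3r and 1 Cxcr2 UMI, but lay outside the neutrophil-like clusters, in a cluster of type 1 conventional dendritic cell (cDC1)-like cells whose leading genes, Pclaf, H1f5 and Ube2c, are genes of dividing cells. It held 1505 UMIs of S100a8, 1566 of S100a9, 539 of Camp, 322 of Ngp and 56 of Wfdc21, and none of Retnlg or Mmp8. Beside them were 136 UMIs of Prtn3, which encodes the azurophil protease proteinase 3, 80 of Fcnb, 111 of Chil3, 12 of Ms4a3, 9 of Cebpe, a transcription factor of granulocyte maturation, 6 of Kit, a receptor of progenitors, 7 of Mki67 and 6 of Top2a, genes of dividing cells. It also held 62 UMIs of Ly6c2, a monocyte gene. This was the only cell in the 13 libraries with 3 or more UMIs of Elane or Mpo, and it carried azurophil and specific granule transcripts together with S100a8, S100a9 and Wfdc21 but without Retnlg. Being 1 barcode, it has no replicate, and whether it held more than 1 cell was not tested.

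Monocyte-like cells outside the rule held the alarmins at a far lower level than neutrophils. There were 747 classical monocyte-like cells, and 6 atlas libraries and STOP had at least 20. Another 194 of the 941 cells in those clusters met the neutrophil rule and are not among them, with a mean of 16.6 S100a8 UMIs against 3.39 in the cells left. The level therefore depended on the rule: 1 of these clusters stood at 3690 CPM in D0 B with the 7 rule cells among its 31 included, and at 1040 CPM in D9 A. S100a8 stood at 17.7 CPM in D0 B (2 UMIs), 662 in D5 A, 322 in D9 A, 852 in D19 A, 214 in D25 A, 468 in D25 B and 67.4 in STOP. S100a9 stood at 8.83, 1134, 356, 383, 125, 273 and 12.6 CPM in the same libraries. In the same libraries, barcodes of at most 100 UMIs, which hold free RNA, contained S100a8 at 326 (D0 B), 909 (D5 A), 1673 (D9 A), 1999 (D19 A), 1310 (D25 A), 354 (D25 B) and 528 (STOP) CPM. The monocyte-like S100a8 level was below that of the free RNA in 6 of the 7 libraries, and above it in D25 B alone. For S100a9 it was above the free RNA in D5 A alone (1134 against 897 CPM). The share of free RNA in a cell was not measured, so a level under that of the free RNA does not give its source. T cell-like cells held S100a8 at a median of 2.66 CPM over the atlas libraries. How much of the monocyte-like level came from free RNA was not tested.

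Among the monocyte-like cells D0 and onset are 1 library each, with the spread taken from the progression libraries, so a low count of calls says little there. DDC against D0 called 0 of 5878 genes (0%), with 599 at an unadjusted p under 0.05 and 22 called by DESeq2. No change is given for the alarmins, since the D0 side is 1 library with 2 and 1 UMIs of S100a8 and S100a9 and the S100a8 level of the free RNA was itself lower there than in the 5 DDC libraries. Progression against onset also called 0 of 5878 (0%), with 501 at an unadjusted p under 0.05 and 0 by DESeq2. Neutrophils and monocyte-like cells were compared with no test, since the libraries are shared: in each of the 6 atlas libraries the neutrophil S100a8 level was the higher one. In D0 A, the 17 monocyte-like cells, too few to enter the fit, held 10246 CPM of S100a8 and 1951 CPM of Retnlg.

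The order of the cell classes was the same for both alarmins at the top. By median over atlas libraries S100a8 was highest in neutrophil-like cells outside the rule (25495 CPM), then in the neutrophils (11953 CPM), nonclassical monocyte-like cells (637 CPM, 3 libraries), classical monocyte-like cells (395 CPM) and monocyte-derived macrophage-like cells (85.4 CPM). All neighbours in that order overlapped in range. The neutrophils include cells outside the neutrophil-like clusters, and those inside had a median of 29904 CPM, above the cells that the rule left out, so the first 2 places turn with that choice. Kupffer cell-like cells held 33.2 CPM, and T cell-like cells 2.66 CPM, at a median depth of 4066 UMIs. The level of S100a8 in barcodes of at most 100 UMIs had a median of 471 CPM over the 13 libraries, above the medians of all classes but the neutrophil classes and the nonclassical monocyte-like cells. What part of a cell's UMIs was free RNA was not measured, so this order does not give the source of the lower levels. For Retnlg the order was again neutrophil-like cells outside the rule (1850 CPM) and neutrophils (1096 CPM, or 2760 CPM inside the clusters), followed by nonclassical monocyte-like cells (69.5 CPM).

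**Figure D4:**
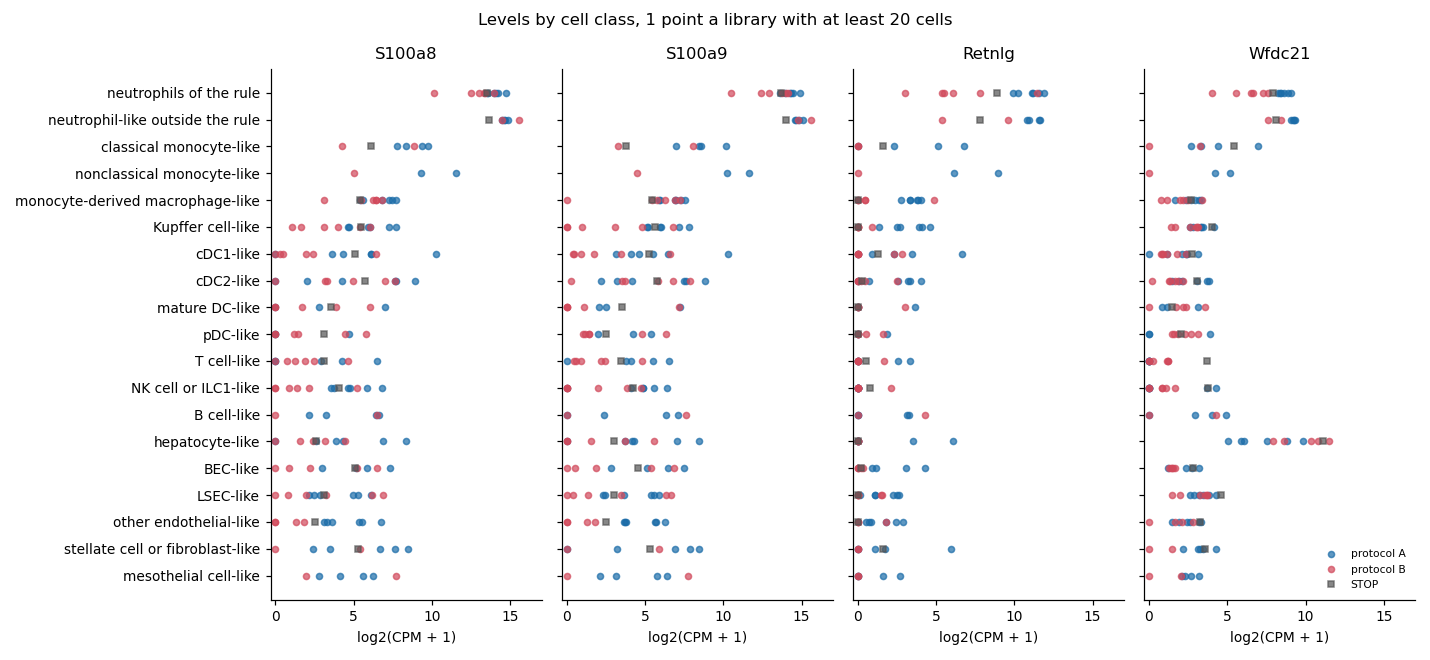
Level of S100a8, S100a9, Retnlg and Wfdc21 by cell class on log2(CPM + 1) axes, 1 point for each library with at least 20 cells of the class (blue, protocol A, red, protocol B, grey square, STOP). The 2 neutrophil classes stand to the right for the first 3 genes, whereas for Wfdc21 the hepatocyte-like cells reach past them, to 2865 CPM.

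Wfdc21 was shared between neutrophils and hepatocyte-like cells, which held 45.1% of its UMIs in cells against 29.7% in the neutrophils. That order rests on STOP, which gave 6721 of the 12011 UMIs of the hepatocyte-like cells and 702 of the 7892 of the neutrophils. In the atlas libraries alone the neutrophils held more. In the neutrophils it stood in protocol A at 527 (D0), 302 (D3), 344 (D5), 388 (D9), 475 (D19) and 326 (D25) CPM. In protocol B it stood at 155, 15.4, 46.8, 91.1, 190 and 101 CPM on the same days, and in STOP at 245 CPM. Every protocol A library lay above every protocol B library. The log2 change with DDC was -0.95 (SE 0.42, edgeR adjusted p = 0.454) and that from onset to progression 0.92 (SE 0.39, adjusted p = 0.364), and the latter was -0.04 in neutrophil-like clusters alone.

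In hepatocyte-like cells the protocols stood the other way round. The class pools a cluster of 2006 cells with 4 of 7 hepatocyte markers, 45.3% of them from D25 A, and another of 792 cells with 7 of 7, 56.3% from STOP. The libraries therefore need not hold the same kind of cells, which was not tested. Wfdc21 was at 245 (D3), 390 (D5), 1324 (D9), 2865 (D19) and 1770 (D25) CPM in protocol B and at 57.3, 66.9, 182, 453 and 32.2 CPM in protocol A on the same days. D0 A held 910 CPM, the 10 hepatocyte-like cells of D0 B held 1971 CPM, and STOP held 2202 CPM. Protocol B lay above protocol A on each of the 5 DDC days, and no test was run on this. Hepatocyte genes did not follow it on every day. Alb, which encodes albumin, stood at 488 CPM in D25 A and 5563 CPM in D25 B, but at 1752 CPM in D9 A and 1171 CPM in D9 B and at 3551 CPM in D19 A and 2247 CPM in D19 B. Hp, the haptoglobin gene of the acute phase, stood at 99.4 (D25 A) and 1341 (D25 B) CPM, at 524 (D9 A) and 216 (D9 B) CPM and at 1286 (D19 A) and 844 (D19 B) CPM. On D3 Alb stood at 623 (A) and 7157 (B) CPM and Hp at 122 and 1101 CPM, and on D5 Alb stood at 536 and 1344 CPM and Hp at 66.9 and 246 CPM. Wfdc21 was thus higher in the library with more Alb and Hp on D3, D5 and D25, and in the library with less on D9 and D19. The part of hepatocyte content in the Wfdc21 difference was not tested. In D25 B, 87.6% of the Wfdc21 UMIs in cells lay in hepatocyte-like cells, and in STOP 83.2%. STOP also held the highest Saa1 and Saa2 of the hepatocyte-like classes, at 1064 and 1135 CPM.

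**Figure D5:**
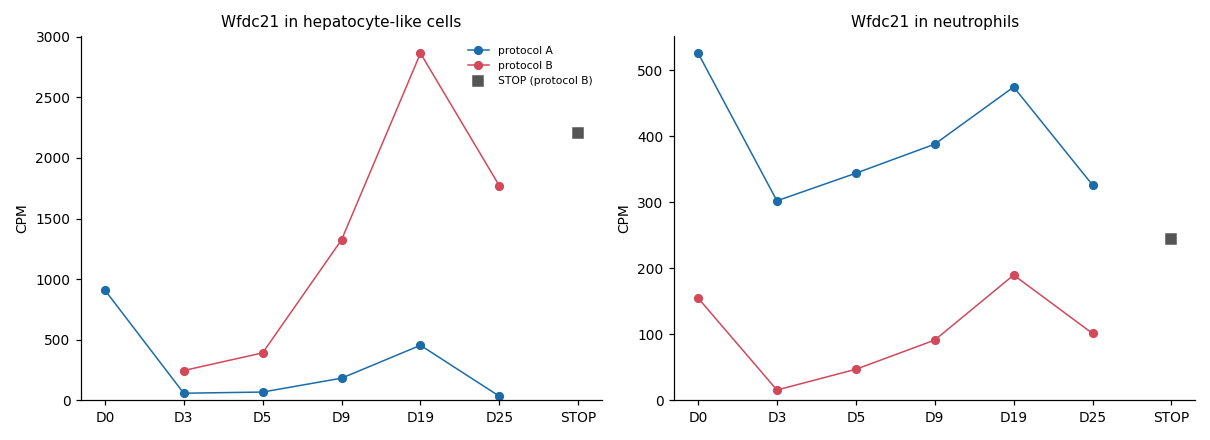
Level of Wfdc21 in CPM by days on DDC in hepatocyte-like cells (left, libraries with at least 20 cells) and in neutrophils (right), blue for protocol A, red for protocol B and a grey square for STOP. In neutrophils protocol A lay above protocol B on every day, and in hepatocyte-like cells protocol B lay above protocol A on each DDC day.

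The genes most like the 8 in their pattern were found over 192 sums of class and library in 19 classes, by Pearson's r of log2(CPM + 1), and are given as a description, since the sums share libraries and depth. S100a8 was most like S100a9 (0.96), Cxcr2 (0.87) and Acod1 (0.85). Cxcr2 was used to choose the neutrophils, so its place near the top is in part set by that choice. Retnlg was most like Stfa2l1 (0.91), Cxcr2 (0.88) and Il1f9 (0.88). Wfdc21 was most like H2-Q10 (0.83), Nlrp12 (0.82) and Hp (0.76). Camp was most like Ngp (0.77), Ly6g (0.67) and Il1f9 (0.65), and Ngp was most like Mrgpra2a (0.85), Ceacam10 (0.84) and Cstdc5 (0.82). Mpo was most like Elane (0.78), and Elane was most like Camp (0.47). The single D9 A cell held 171 of the 202 Elane UMIs and 37 of the 50 Mpo UMIs, and r was not computed without it.

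STOP was set beside the atlas with no test, being 1 library. Its neutrophils held S100a8 at 11466 CPM (exact 95% Poisson interval 11343 to 11591), within the DDC libraries of protocol B (1114 to 16078 CPM). Inside the neutrophil-like clusters the placement turned, with 46778 CPM in STOP, above D0 A (45299 CPM) and above the DDC libraries of protocol B with at least 20 such cells, of which the lowest was D25 B (19554 CPM) and the highest D19 B (37540 CPM). Of the 228 STOP neutrophils in those clusters, 174 lay in a single cluster that held 218 neutrophils over all libraries, so that cluster cannot be told apart from the library. Retnlg at 471 CPM (interval 447 to 497) lay above all 5 of these (7.20 to 225 CPM) and below D0 B (2812 CPM). Wfdc21 at 245 CPM (interval 227 to 264) also lay above all 5 (15.4 to 190 CPM) and above D0 B (155 CPM). The free RNA of STOP held Wfdc21 at 422 CPM, more than its neutrophils, against 20.4 CPM in D0 B and 7.50 to 75.9 CPM in the DDC libraries of protocol B, and T cell-like cells held it in 1.65% of cells in STOP and 0% in D0 B after thinning. In the cluster that held 174 of the STOP neutrophils, Wfdc21 stood at 716 CPM in STOP, above the level of its free RNA. After thinning, 31.1% of the STOP neutrophils held a Wfdc21 UMI. How much of the STOP level came from free RNA was not tested. Camp and Ngp, at 0.698 and 0.349 CPM, rested on 2 and 1 UMIs, and Elane and Mpo were at 0 in its neutrophils, which allows up to 1.29 CPM by the exact interval. The intervals cover counting error only.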

How the data were processed

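Per the labels, the authors deposited for 13 libraries of mouse liver untransformed UMI counts of every gene in every barcode, made with 10x 3′ kits (single index for protocol A, dual index for protocol B) and kallisto on GRCm38 (version not given in the sources used here), with no filter on barcodes. Cells were barcodes with at least 1500 UMIs. Doublets were not removed, and the alternative without markers of other lineages stands for that step. Neutrophils were chosen by the rule on Csf3r, Cxcr2 and C1qa given above. The members and lists were chosen with earlier results of these data known. Cells were clustered on 40 principal components of 2000 variable genes with 25 neighbours (59 clusters, igraph 0.11.9), the neutrophil and monocyte lineage was clustered again, and clusters were named from fixed markers by a rule revised after the clusters were seen. A cluster with every marker of another type stayed unnamed.

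UMIs were summed per library and class over at least 20 cells and tested with edgeR 4.0.16 (quasi-likelihood, TMM, filterByExpr, protocol as a term) at a Benjamini-Hochberg adjusted p of 0.05, DESeq2 1.42.0 being an alternative. Groups were D0 (n = 2), onset (D3, D5, n = 4) and progression (D9, D19, D25, n = 6). In the fits, DDC against D0 took the mean of onset and progression, with both weighing the same. Levels are CPM, the counts in every 1000000 UMIs of the summed cells, log plots add 1, and a count of 0 is read against a floor of 3 counts. Shares were compared by exact permutation of the labels within protocol, after thinning each cell to 1500 UMIs (SciPy 1.17.1, R 4.3.3). With the replicate number standing for the protocol, libraries of the same protocol deviated together: in 15 of 15 pairs of days the differences between protocols correlated over 0.1 (0.346 to 0.762). On simulated counts with 200 genes changed 4-fold, 86% were recovered for DDC against D0 and 99% for progression against onset in the neutrophils, 19.5% and 72.5% in the monocyte-like cells, 8% for the difference between protocols and 43.5% for cells with Camp or Ngp. Named genes were the 8 genes, the list members called, the 5 leading genes in each direction whose mean log2 CPM was 5 or more, and for each of the 8 the 3 genes most like it, with predicted, mitochondrial and ribosomal genes excluded. Genes named in the description of the single D9 A cell were chosen after its values were seen. Tests compare libraries, whose spread may be technical.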

Additional observations from a re-analysis of the deposited data

Results flagged for a closer look

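Within each stage with 4 to 6 libraries, 20 groups of values were tested for a library far from the rest, and 6 were found. Chance gives about 5% of groups only for normally distributed values. Where all other libraries stand at 0, any count is flagged, as for Camp in D3 A and Mpo in D9 A. The 6 are therefore not read against that 5%. In the neutrophils, Camp stood at 10.6 CPM in D3 A while the other 3 onset libraries were at 0, and 25 of its 26 UMIs there came from 1 cell. In the progression libraries, D9 A stood apart with 120 CPM of Camp, 37.6 CPM of Elane and 8.36 CPM of Mpo, and the same single cell gave 539, 171 and 37 of these UMIs. In the classical monocyte-like cells of the progression libraries, Retnlg stood at 34.2 CPM in D9 A (42 UMIs), where the free RNA held 193 CPM. Wfdc21 stood at 126 CPM in those cells in D19 A (63 UMIs in 57 cells).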

How the results depend on the processing

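Alternatives within protocol, all cells of neutrophil-like clusters and the difference between protocols were chosen after seeing the data. In the neutrophils, DDC against D0 called 161 genes with DESeq2, 525 with no filter on low counts, 2 with no marker of other lineages, 61 from at least 500 UMIs, 6 from at least 3000 UMIs, 26 in all cells of neutrophil-like clusters, 46 in protocol A only and 72 in protocol B only, each against a single D0 library assumed to vary like the others. Leaving out 1 library gave 2 (without D3 A) to 108 (without D0 A). Progression against onset called 215 with DESeq2, 785 with no filter, 4 with at least 2 UMIs of Csf3r plus Cxcr2, 5 in neutrophil-like clusters only, 4 with no marker of other lineages, 6 in all cells of those clusters, 0 in protocol A or B only, and 0 to 22 (without D9 A) with 1 library left out. Without the replicate block (the protocol term) the counts were 4 and 0. The difference between protocols called 0 in neutrophil-like clusters, 257 with DESeq2 and 0 to 99 (without D19 A) with 1 library left out. The monocyte-like counts were 22 with DESeq2, 96 with no filter and 0 to 5 (without D19 A) with 1 library left out for DDC against D0, and 76 with no filter for progression against onset. Cells with Camp or Ngp gave 18 calls with DESeq2 and 227 without thinning.

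The difference in the share with Camp or Ngp, DDC minus D0, was -0.474 points without thinning, -0.0754 for at least 2 UMIs of Camp plus Ngp, and -0.0640 (without D0 B) to 0.957 with 1 library left out. Signs turned for progression against onset in Retnlg (-0.33 with no replicate block, -0.27 with at least 2 Csf3r plus Cxcr2 UMIs, -0.39 in neutrophil-like clusters, -0.28 with no marker of other lineages, -0.42 in all cells of the clusters, -0.40 in protocol A only, and -0.11 to 1.22 with 1 library left out), S100a8 (-0.11 and -0.095 in the clusters and in all their cells), S100a9 (-0.21 and -0.21), Wfdc21 (-0.038 and -0.036) and Camp (-2.10 in the clusters, -1.11 to 8.39 with 1 library left out). They turned for DDC against D0 in Ngp (0.56 in protocol B only, -2.87 to 3.64 with 1 library left out), and for the difference between protocols in S100a8 (0.16 in the clusters, -1.22 to 0.12 with 1 library left out). No value with a turned sign passed the test, and the causes were not tested. Of the other values of single genes, 361 kept direction and side of the threshold or, for median levels, stayed within the SD between libraries. Another 13 median levels moved further than that. The threshold was newly passed by 19 values, among them Retnlg, Camp and Ngp for DDC against D0 with no filter on low counts. Not run were the monocyte-like fits with no marker of other lineages or without the only onset library, DDC against D0 in those cells without the only D0 library, and the cells with Camp or Ngp without 1 library, where no residual degrees of freedom are left. Depth limits Camp, Ngp, Elane and Mpo, which were counted in few cells.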

Other observations

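Neutrophils hold little RNA, and the minimum of 1500 UMIs left some of them out. In D0 B, 149 barcodes with at least 500 but under 1500 UMIs met the same rule on Csf3r, Cxcr2 and C1qa, beside 151 above the minimum. They held S100a8 at 34405 CPM, S100a9 at 63917 CPM and Retnlg at 10627 CPM, against 10491, 17940 and 2812 CPM in the cells above the minimum. In D0 A, 89 such barcodes held 33663 CPM of S100a8 and 2278 CPM of Retnlg, and in D5 B, 5 such barcodes held none of either. The largest set, 385 barcodes of D25 A, stood lower than the cells above the minimum, with 5711 against 12309 CPM of S100a8 and 460 against 978 CPM of Retnlg, and the 320 barcodes of D9 A held 19431 against 17679 CPM of S100a8. Of all S100a8 UMIs, 54.7% lay in cells in D0 B and 89.1% in D0 A, and for Retnlg these shares were 49.4% and 91.4%.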
